A study of Homo sapiens with 32 samples.

Results

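The 46 genes described here encode the machinery that folds, checks, and ships proteins in the endoplasmic reticulum (ER) and the early secretory pathway. They were chosen by symbol, as the sensors and transcription factors of the unfolded protein response (7 genes), the HSP70 and HSP90 chaperones of the ER with their cofactors (11), the lectin chaperones (2), the protein disulfide isomerases (5), ER-associated degradation (7), translocation and the signal peptidase (6), and vesicle coats, cargo receptors, and retrieval (8). All 46 were among the 25498 genes of the deposited tables, and all 46 were among the 16995 genes with enough counts to be tested.

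Proteins bound for the cell surface or for secretion enter the ER while they are made, are folded there by chaperones, and leave in COPII-coated vesicles. Escaped ER chaperones are returned by KDEL receptors in COPI-coated vesicles, and proteins that fail to fold are exported to the proteasome. When unfolded proteins accumulate, the sensors IRE1 (gene *ERN1*), PERK (*EIF2AK3*), and ATF6 start the unfolded protein response, in which XBP1 and the cleaved form of ATF6 raise chaperone transcription through promoter sequences called ER stress elements. Luminal prostate cells are secretory and release large amounts of proteins such as PSA.

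RNA was sequenced from LNCaP, an androgen-dependent prostate cancer cell line from a lymph node metastasis, in 8 groups of 4 libraries, with replicates 1 and 2 in each of 2 batches. Cells of 1 group stayed in medium with fetal bovine serum (FBS), while the medium of 7 groups was replaced by medium with charcoal-stripped serum (CSS), which holds little steroid hormone. Of the CSS groups, 1 received no ligand and served as the control, and 6 received 100 ng/mL EGF (the ligand of EGFR) or 100 ng/mL NRG-1 (a ligand of HER3 and HER4) on the following day for 5 minutes, 1 hour, or 4 hours, so that every ligand group was also in CSS. The labels describe washing and a change of medium for the CSS groups and do not say whether FBS cells were handled the same way, and all groups come from 1 cell line.

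Values for single libraries are counts relative to the library size after TMM scaling (CPM), always in the order batch 1 replicate 1, batch 1 replicate 2, batch 2 replicate 1, and batch 2 replicate 2. Fold changes, standard errors (SE), and Benjamini-Hochberg adjusted *P* values come from 1 quasi-likelihood fit in edgeR over all 32 libraries and all 16995 genes, with group and batch as terms, and a gene was called at an adjusted *P* below 0.05. CPM depends on transcript length, so levels of different genes are compared in TPM, which is corrected for length and for the total of the library. In bulk RNA, fewer cells that express a gene and less RNA per cell cannot be told apart.

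Expected counts summed to 63822654 to 92401724 per library. The 9 markers of LNCaP cells all had a mean of at least 1 TPM in CSS, and *KLK3*, which encodes PSA, was at 2442 ± 364 TPM (SD, *n* = 4) in FBS and 283 ± 48.9 TPM in CSS. *FKBP5*, another androgen-responsive gene, was at 84.5 ± 20.8 TPM in FBS and 28.5 ± 3.25 TPM in CSS. Of 12 markers of immune, endothelial, stromal, and basal cells, 10 had a mean below 1 TPM in CSS, and the sum of all 12 lay between 5.85 and 7.41 TPM in CSS, between 4.05 and 5.88 TPM in FBS, and between 3.77 and 8.52 TPM over all libraries. The basal keratin gene *KRT14* was at 1.57 ± 0.611 TPM in FBS and 0.13 ± 0.0949 TPM in CSS, and its part in the serum results was not tested. The batches differed for several members, for some of them (such as *KDELR3* and *TMED2*) in FBS as well and for *HSPA5* in the CSS and ligand groups but not in FBS.

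In CSS, the 46 members together held 6804 ± 586 TPM, and in FBS they held 6706 ± 419 TPM. The sum was 7146 ± 760 TPM after 4 hours of EGF and 6713 ± 585 TPM after 4 hours of NRG-1, so that the group sums overlapped. *CALR* had the highest level, with 1181 ± 191 TPM in CSS (SD, *n* = 4), followed by *HSP90B1* (609 ± 67.7 TPM), *P4HB* (531 ± 46.4 TPM), *PDIA3* (478 ± 42.6 TPM), and *HSPA5* (347 ± 66.9 TPM). These encode calreticulin, GRP94, a pair of disulfide isomerases, and BiP. *HSP90B1* and *P4HB* each differed from the next gene in that order by less than the sum of both SDs, whereas *CALR* and *PDIA3* stood clear of the next. At the other end were *KDELR3* (1.93 ± 0.374 TPM) and *DERL3* (1.19 ± 0.218 TPM), which were also the members with the greatest changes with ligand and with serum.

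Promoter windows of RefSeq (GRCh38.p14, 250 bases before to 50 bases after the annotated start) were at hand for 41 of the 46 members and were searched on both strands. The ER stress element, which is CCAAT and CCACG with 9 bases of any kind between them, was found for 7 of 41 members (17.1%) and for 25 of all 27305 genes with a window (0.0916%). The ER stress element II, which is ATTGG and CCACG with 1 base of any kind between them, was found for 3 of 41 members (7.32%) and for 19 of all genes (0.0696%). The core of the unfolded protein response element, TGACGTGG, was found for 5 of 41 members (12.2%) and for 253 of all genes (0.927%), and the cAMP response element, TGACGTCA, for 1 of 41 members, *CREB3L2* (2.44%), and for 614 of all genes (2.25%). The members were chosen as genes of the ER and of the unfolded protein response, so these shares are a description and no test. Genes with the same ER stress element or ER stress element II differed in their response, and *KDELR3* rose most with ligand. The sequences below are shown for these reasons. Each is given 5′ to 3′ on the strand of its gene, with the matched letters in capitals, and a match on the opposite strand reads as the reverse complement.
*HSPA5* (chr9:125241371-125241429, minus strand, ER stress element): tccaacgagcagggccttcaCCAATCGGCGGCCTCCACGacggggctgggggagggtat
*HSP90B1* (chr12:103930196-103930254, plus strand, ER stress element): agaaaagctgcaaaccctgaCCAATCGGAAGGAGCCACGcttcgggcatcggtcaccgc
*CRELD2* (chr22:49918534-49918592, plus strand, ER stress element on the opposite strand): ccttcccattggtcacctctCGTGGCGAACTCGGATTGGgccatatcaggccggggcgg
*PDIA6* (chr2:10812833-10812891, minus strand, ER stress element): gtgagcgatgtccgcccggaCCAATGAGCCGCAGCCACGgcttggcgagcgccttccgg
*CALR* (chr19:12938364-12938422, plus strand, ER stress element on the opposite strand): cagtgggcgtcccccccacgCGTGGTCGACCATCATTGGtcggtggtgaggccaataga
*XBP1* (chr22:28800583-28800641, minus strand, ER stress element): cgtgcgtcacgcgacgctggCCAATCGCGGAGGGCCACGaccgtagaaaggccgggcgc
*HYOU1* (chr11:119057254-119057304, minus strand, ER stress element II on the opposite strand): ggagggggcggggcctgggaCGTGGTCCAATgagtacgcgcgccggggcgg
*SDF2L1* (chr22:21642094-21642144, plus strand, ER stress element II on the opposite strand): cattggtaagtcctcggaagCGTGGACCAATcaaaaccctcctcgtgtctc
*HERPUD1* (chr16:56932005-56932055, plus strand, ER stress element II): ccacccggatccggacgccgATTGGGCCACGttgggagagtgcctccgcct
*KDELR3* (chr22:38468030-38468077, plus strand, core of the unfolded protein response element on the opposite strand): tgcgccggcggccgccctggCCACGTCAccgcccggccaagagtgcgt

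The match in the *HSPA5* window lay 66 to 48 bases upstream of the start, that of *XBP1* 52 to 34 bases upstream, that of *PDIA6* 86 to 68, and that of *CRELD2* 80 to 62. *HSP90B1* held another ER stress element 89 to 71 bases upstream besides the one shown, which lay 194 to 176 bases upstream. *HYOU1* held another ER stress element II 185 to 175 bases upstream besides the one shown, which lay 79 to 69 bases upstream. *CANX* was the other member with an ER stress element. The other members with the core of the unfolded protein response element were *HYOU1*, where it overlapped the ER stress element II not shown, *DNAJC10*, *SSR3*, and *COPB2*. These are matches of letters only, and binding was not measured.

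**Figure D1:**
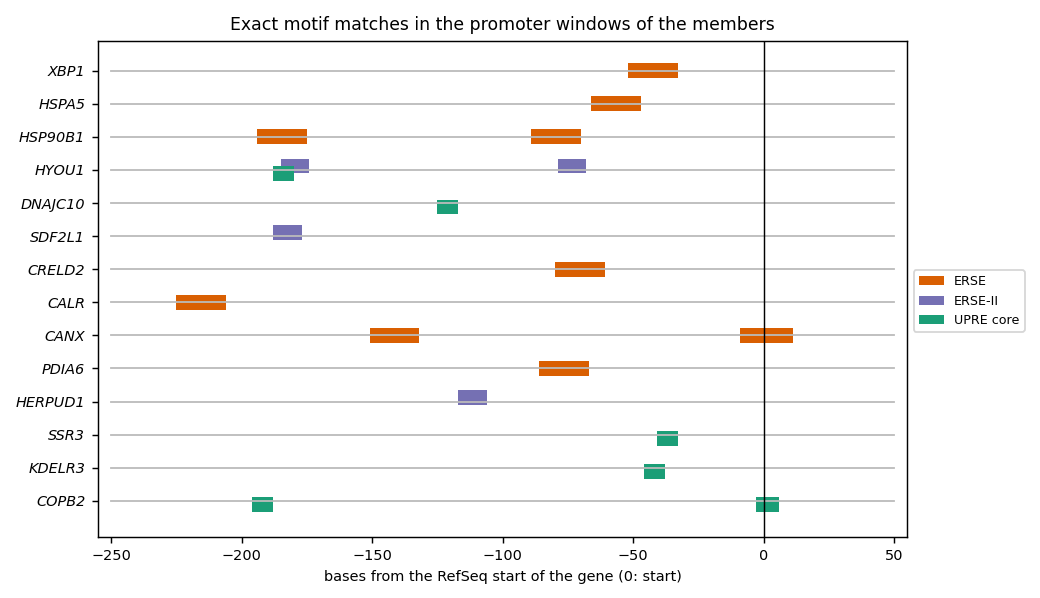
Position of motif matches in the promoter windows of members with at least 1 match to the elements drawn. The horizontal axis gives bases relative to the RefSeq start, from 250 before to 50 after it, and each row is a gene. Colors mark the ER stress element, the ER stress element II, and the core of the unfolded protein response element. The cAMP response element of *CREB3L2* is not drawn. The ER stress element of *HSPA5* lies 66 to 48 bases before the start.

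Between FBS and CSS, 26 of the 46 members were called, 21 higher in FBS and 5 lower, whereas 52.7% of all genes tested were called (26.0% higher and 26.8% lower). The median log2 fold change was 0.17 for the members and -0.01 for all genes. On TPM that were not rescaled between libraries, limma called 13 members higher and 16 lower in FBS, with medians of -0.03 for the members and -0.17 for all genes. The direction of small differences in this comparison thus depended on the scaling. The shares of all genes above are those of the edgeR fit.

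After 4 hours of EGF, 30 members were called, 25 higher than in CSS and 5 lower, against 49.2% of all genes (24.6% in each direction). On unscaled TPM, limma called 13 members higher and 6 lower. With NRG-1 at 4 hours, 23 members were called, 16 higher and 7 lower, against 42.6% of all genes (21.6% higher and 21.0% lower), and on unscaled TPM the split was 5 higher and 6 lower. The shares of all genes here are those of the edgeR fit, and those of limma are not given. Of the members given by library, *CRELD2* (adjusted *P* = 0.137 in limma), *HYOU1* (0.242), *SDF2L1* (0.227), *ATF6* (0.274), and *DERL3* (0.166) lost their EGF call on unscaled TPM, and *HSPA5* (0.409), *HSP90B1* (0.253), *MANF* (0.0616), *CRELD2* (0.655), *ATF6* (0.493), and *DERL3* (0.201) lost their NRG-1 call. The median log2 fold change was 0.16 with EGF and 0.08 with NRG-1.

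At 5 minutes, 0 of 46 members were called by edgeR with either ligand, beside 0.00588% of all genes with EGF and 0% with NRG-1. At an unadjusted *P* below 0.05 there was 1 member with each ligand (*DERL3*, lower than in CSS with both), against 1.48% of all genes with EGF and 1.91% with NRG-1. DESeq2 and limma also called 0 members. At 1 hour, 4 members were called higher and 1 lower with EGF, against 9.51% of all genes (6.00% higher and 3.51% lower), and 2 were called higher and 0 lower with NRG-1, against 6.73% of all genes (4.45% higher and 2.28% lower). Called and beyond 1 on the log2 scale were 0 members with either ligand at 1 hour, against 1.72% of all genes with EGF and 0.989% with NRG-1. The share of members called was at or near that of all genes in each of these comparisons.

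**Figure D2:**
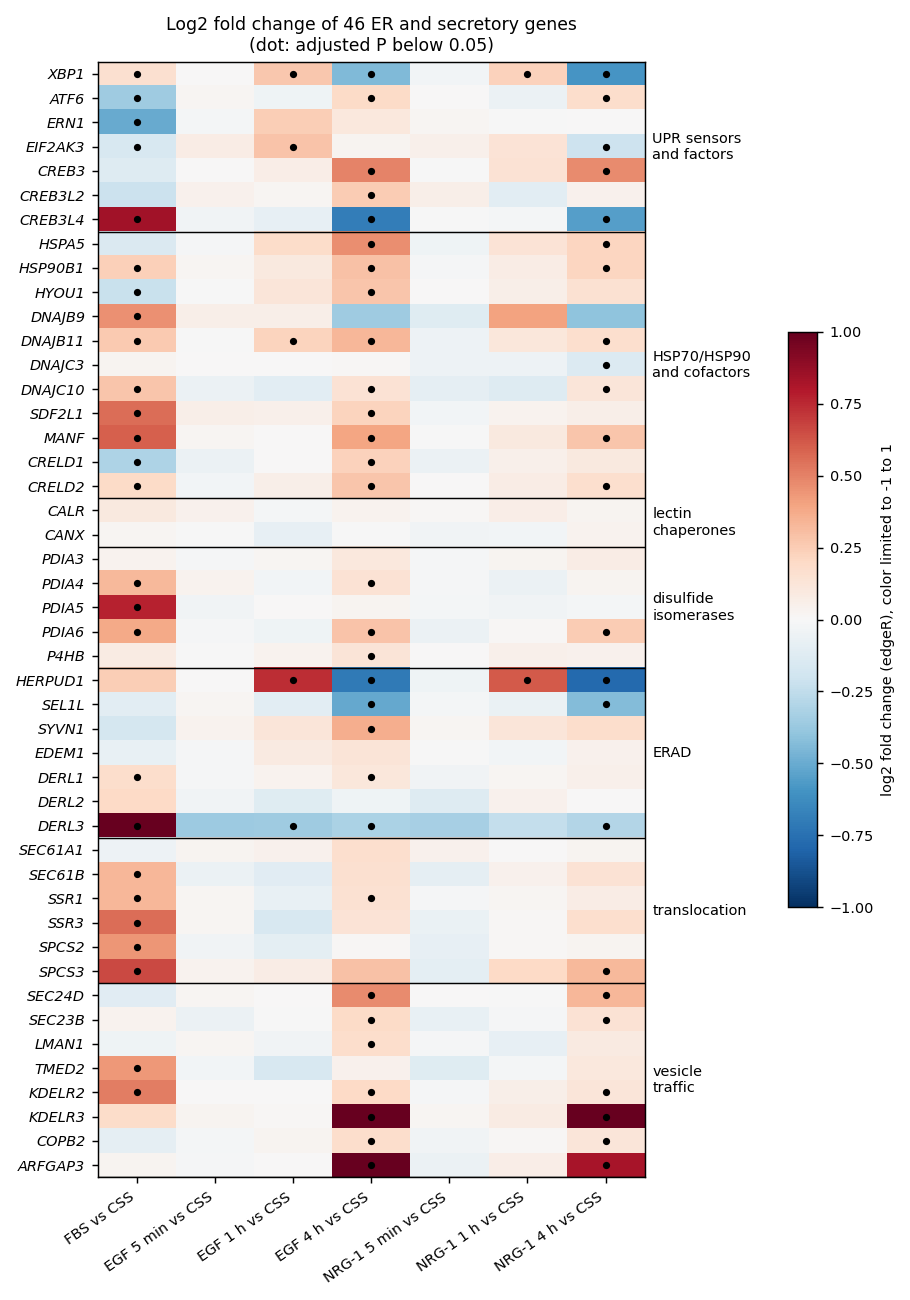
Log2 fold changes from edgeR for the 46 members (rows, ordered by role) in 7 comparisons (columns), colored from lower to higher, with a dot where the adjusted *P* was below 0.05. The 5-minute columns hold no dot, *HERPUD1* and *XBP1* change color between 1 and 4 hours of ligand, and *DERL3* has the strongest color in FBS.

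Among the sensors and transcription factors, *CREB3L4*, *XBP1*, and *ATF6* were called in opposite directions with serum and with ligand at 4 hours. On unscaled TPM, the value of *XBP1* in FBS changed sign and the ligand calls of *ATF6* were lost. *CREB3L4*, also called AIbZIP, a membrane-bound transcription factor known for its high level in prostate epithelium, was at 123, 129, 124, and 146 CPM in FBS and at 71.8, 70.5, 73.7, and 75.1 CPM in CSS. After 4 hours of EGF it was at 43.3, 43.0, 46.1, and 47.9 CPM, and after 4 hours of NRG-1 at 46, 47.9, 51.4, and 53.7 CPM. The FBS libraries were all above the CSS libraries, and the ligand libraries were all below them. The log2 fold change was 0.84 for FBS (SE 0.05, adjusted *P* = 2.27e-13 in edgeR), -0.69 for EGF (SE 0.06, adjusted *P* = 1.62e-11), and -0.55 for NRG-1 (SE 0.05, adjusted *P* = 2.47e-09). At 1 hour, *CREB3L4* was at 68.8 ± 3.22 CPM with EGF and 72.0 ± 5.25 CPM with NRG-1 and was not called.

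*XBP1*, the transcription factor whose mRNA IRE1 splices, had 209, 227, 223, and 239 CPM in FBS and 184, 192, 211, and 221 CPM in CSS. Values per gene do not separate its spliced from its unspliced form. The FBS and CSS libraries overlapped, with a log2 fold change of 0.16 (adjusted *P* = 0.0262 in edgeR, SE 0.06), and on unscaled TPM the value was -0.04. The call was lost without FBS batch 1 replicate 2 (adjusted *P* = 0.129), CSS batch 1 replicate 1 (0.0626), or CSS batch 2 replicate 1 (0.0685). Ligands moved *XBP1* further. With EGF it was at 244, 224, 247, and 254 CPM at 1 hour and at 137, 136, 158, and 164 CPM at 4 hours. The 1-hour libraries were all above CSS and the 4-hour libraries all below it, with log2 fold changes of 0.27 (SE 0.06, adjusted *P* = 0.00187 in edgeR) and -0.44 (SE 0.06, adjusted *P* = 3.06e-07). With NRG-1 at 1 hour *XBP1* was at 216, 234, 234, and 264 CPM, which overlapped with CSS between batches. NRG-1 gave a log2 fold change of 0.23 at 1 hour (adjusted *P* = 0.01 in edgeR, and 0.0507 without NRG-1 1 h batch 1 replicate 2) and of -0.59 at 4 hours (SE 0.06, adjusted *P* = 2.38e-09), when the libraries were at 120, 120, 145, and 153 CPM.

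The stress sensors *ATF6*, *ERN1*, and *EIF2AK3* were all called lower in FBS than in CSS and differed in their calls with ligand. The FBS call of *EIF2AK3* depended on single libraries, as given below. *ATF6* was at 87.1, 85.0, 75.6, and 68.9 CPM in FBS and at 106, 106, 94.9, and 97.8 CPM in CSS, which did not overlap, and it fell by 0.36 on the log2 scale in FBS (SE 0.05, adjusted *P* = 1.58e-07 in edgeR). After 4 hours it was at 127, 128, 102, and 106 CPM with EGF and at 130, 122, 104, and 103 CPM with NRG-1. These libraries overlapped with CSS between batches, but each was above the CSS library of the same batch and number, with log2 fold changes of 0.19 (adjusted *P* = 0.000852 in edgeR) and 0.18 (adjusted *P* = 0.00185). ATF6 acts after cleavage of the protein, which was not measured.

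*ERN1*, encoding IRE1, was at 19.3, 17.2, 16.0, and 11.1 CPM in FBS and at 22.6, 24.6, 22.6, and 20.2 CPM in CSS. All FBS libraries were below all CSS libraries, with a log2 fold change of -0.51 (adjusted *P* = 0.000838 in edgeR, SE 0.12). At 1 hour of EGF it was at 28.3, 29.5, 25.8, and 23.1 CPM, a log2 fold change of 0.24 that was not called (adjusted *P* = 0.272 in edgeR) and that was called with the replicate number as a block (adjusted *P* = 0.0249). *ERN1* was not called with either ligand at 4 hours.

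*EIF2AK3*, encoding PERK, was the only member called between the ligands. It was at 49.8, 49.3, 45.8, and 42.3 CPM after 4 hours of EGF and at 43.6, 39.7, 40.0, and 35.2 CPM after 4 hours of NRG-1, which overlapped between batches and differed by 0.24 on the log2 scale (SE 0.06, adjusted *P* = 0.0313 in edgeR). The call was lost without any of 5 of these libraries, with an adjusted *P* of up to 0.124 (without EGF 4 h batch 1 replicate 1). Against CSS (46.3, 48.5, 44.5, and 43.9 CPM), it fell by 0.21 with NRG-1 at 4 hours (SE 0.06, adjusted *P* = 0.00499 in edgeR), and with EGF it rose by 0.28 at 1 hour (56.7, 60.3, 52.2, and 53.8 CPM, adjusted *P* = 0.00117), with no overlap in either case. In FBS it was at 47.7, 44.2, 39.0, and 33.5 CPM, which overlapped with CSS. Its log2 fold change of -0.16 (adjusted *P* = 0.0241 in edgeR) was -0.05 in batch 1 and -0.29 in batch 2, and the call was lost without FBS batch 2 replicate 2 (adjusted *P* = 0.131), CSS batch 1 replicate 2 (0.0535), or CSS batch 2 replicate 1 (0.0558).

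*CREB3*, a membrane-bound factor of the Golgi and ER that is released by cleavage, changed with ligand. It was at 61.5, 60.1, 55.5, and 59.7 CPM after 4 hours of EGF and at 57.6, 57.8, 54.1, and 63.8 CPM after 4 hours of NRG-1, all above the 42.0, 39.9, 42.2, and 44.2 CPM of CSS. The log2 fold changes were 0.49 (SE 0.08, adjusted *P* = 3.44e-06 in edgeR) and 0.47 (SE 0.08, adjusted *P* = 9.45e-06). In FBS it was at 35.3, 37.8, 38.8, and 42.6 CPM, with a log2 fold change of -0.13 (adjusted *P* = 0.17 in edgeR, and 0.037 with the replicate block). *CREB3L2*, a relative of *CREB3*, rose by 0.25 with EGF at 4 hours (adjusted *P* = 0.0469 in edgeR), and its value in FBS was -0.21 (adjusted *P* = 0.0891, and 0.00328 with the block).

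**Figure D3:**
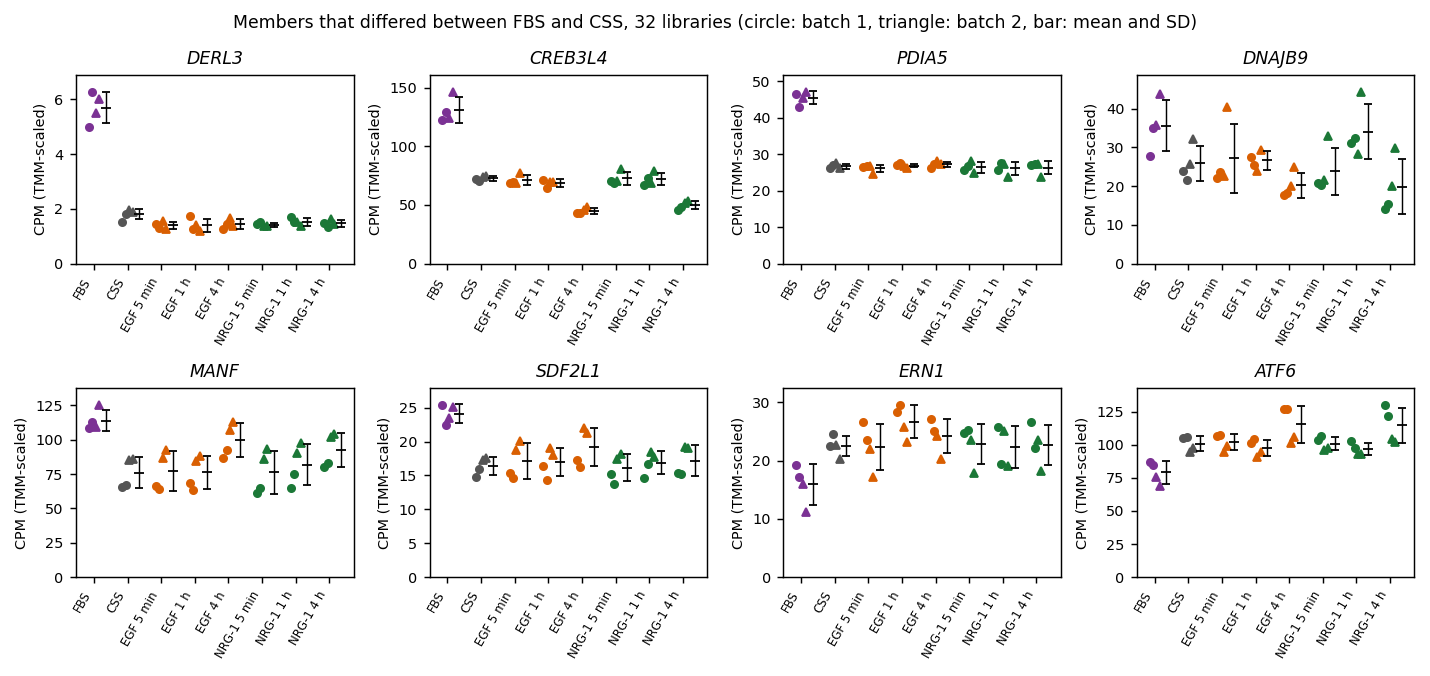
CPM of *DERL3*, *CREB3L4*, *PDIA5*, *DNAJB9*, *MANF*, *SDF2L1*, *ERN1*, and *ATF6* in each of the 8 groups. Circles are libraries of batch 1, triangles are libraries of batch 2, and bars show the mean ± SD of 4 libraries. The FBS libraries lie above those of the other groups for *DERL3*, *CREB3L4*, and *PDIA5*, and below CSS for *ERN1* and *ATF6*.

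Of the 11 ER chaperones of the HSP70 and HSP90 families and their cofactors, 7 were called higher and 2 lower in FBS, 9 higher and 0 lower with EGF at 4 hours, and 6 higher and 1 lower with NRG-1 at 4 hours. Of all genes, 26.0% were called higher and 26.8% lower in FBS, 24.6% in each direction with EGF, and 21.6% and 21.0% with NRG-1. The median log2 fold changes of these chaperones were 0.24, 0.27, and 0.15. *HSPA5*, encoding BiP, the main HSP70 of the ER, was at 609, 650, 929, and 926 CPM in CSS, 862, 865, 1305, and 1283 CPM after 4 hours of EGF, and 747, 743, 1090, and 1034 CPM after 4 hours of NRG-1. Within each batch the ligand libraries were all above CSS, whereas across batches they overlapped. The log2 fold change was 0.47 with EGF (adjusted *P* = 7.86e-06 in edgeR, SE 0.08) and 0.22 with NRG-1 (adjusted *P* = 0.0213, SE 0.08), and the NRG-1 call was lost without CSS batch 1 replicate 1 (0.0684) or NRG-1 4 h batch 2 replicate 1 (0.0507).

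In FBS, *HSPA5* was at 669, 674, 683, and 715 CPM and showed no such gap between batches. Its log2 difference from CSS was 0.09 in batch 1 and -0.41 in batch 2, and it was not called over both batches (-0.14, adjusted *P* = 0.122 in edgeR). What set the batches apart in the CSS and ligand groups was not tested. *HYOU1*, encoding the HSP70-related GRP170, showed the same batch gap, with 299, 320, 390, and 370 CPM in CSS against 314, 274, 311, and 273 CPM in FBS. Its log2 fold change in FBS was -0.22 (adjusted *P* = 0.0146 in edgeR), with -0.08 in batch 1 and -0.38 in batch 2, and the call was lost without FBS batch 2 replicate 2 (0.0723) or CSS batch 2 replicate 1 (0.0524). With EGF at 4 hours it was at 389, 374, 464, and 437 CPM and rose by 0.27 (adjusted *P* = 0.00333 in edgeR, SE 0.08), whereas its NRG-1 value was 0.15 (adjusted *P* = 0.105, and 0.0365 with the replicate block).

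*MANF*, a small secreted protein that binds BiP, was at 108, 113, 109, and 125 CPM in FBS, 65.5, 67.3, 85.3, and 86.2 CPM in CSS, and 86.6, 92.8, 107, and 113 CPM after 4 hours of EGF. FBS and EGF libraries were all above CSS libraries. The log2 fold change was 0.60 in FBS (SE 0.07, adjusted *P* = 1.46e-08 in edgeR), 0.40 with EGF (SE 0.07, adjusted *P* = 1.27e-05), and 0.28 with NRG-1 (adjusted *P* = 0.00106). FBS exceeded EGF at 4 hours by 0.20 (adjusted *P* = 0.00926 in edgeR, and 0.0675 without FBS batch 1 replicate 2).

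*SDF2L1*, which forms a BiP cofactor complex with the J protein of *DNAJB11*, was at 25.4, 22.4, 23.4, and 25.1 CPM in FBS and at 14.8, 15.9, 17.3, and 17.6 CPM in CSS, with no overlap. It rose by 0.56 in FBS (SE 0.07, adjusted *P* = 3.88e-08 in edgeR) and by 0.22 with EGF at 4 hours (17.3, 16.3, 22.0, and 21.3 CPM, adjusted *P* = 0.00636), where libraries overlapped with CSS. *HSP90B1* was at 1048, 1066, 1143, and 1250 CPM in FBS and at 816, 891, 1062, and 1077 CPM in CSS, which overlapped only between batches. Its log2 fold change was 0.24 in FBS (adjusted *P* = 0.000163 in edgeR), 0.30 with EGF at 4 hours (adjusted *P* = 8.01e-06), and 0.22 with NRG-1 at 4 hours (adjusted *P* = 0.000581). The FBS call was lost on unscaled TPM (0.04, adjusted *P* = 0.694 in limma), with no batch term (0.145), and in batch 2 alone (0.123).

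*DNAJB9*, a J protein that is known to restrain IRE1, was at 27.8, 35, 35.9, and 43.8 CPM in FBS and at 24.0, 21.7, 25.8, and 32.2 CPM in CSS. These libraries overlapped, and the log2 fold change of 0.46 (SE 0.17, adjusted *P* = 0.023 in edgeR) lost its call on unscaled TPM (0.25, adjusted *P* = 0.0601 in limma) and without any of 4 libraries, with an adjusted *P* of 0.0546 to 0.0748 (without CSS batch 1 replicate 2 and FBS batch 2 replicate 2; the others were FBS batch 1 replicate 2 and CSS batch 2 replicate 1). After 4 hours it was at 17.8, 18.2, 19.9, and 25.0 CPM with EGF and at 14.1, 15.5, 20.0, and 30.0 CPM with NRG-1. The log2 fold changes of -0.36 and -0.40 were not called (adjusted *P* = 0.0811 and 0.0555 in edgeR) and were called with the replicate block (0.00333 and 0.00109). Each of the 4 libraries of either ligand was below the CSS library of the same batch and number.

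The cofactors *CRELD1* and *CRELD2*, of which the latter is known as an ER stress gene, moved apart in FBS. *CRELD1* was at 29.3, 32.3, 32.2, and 39.7 CPM in FBS and at 42.1, 38.9, 42.0, and 41.9 CPM in CSS, which overlapped by 1 library, and it fell by 0.31 (SE 0.06, adjusted *P* = 0.000239 in edgeR). *CRELD2* was at 39.8, 35.3, 40.1, and 42.0 CPM in FBS and at 29.9, 31.4, 40.8, and 36.1 CPM in CSS, an overlapping difference of 0.19 (SE 0.06, adjusted *P* = 0.0119 in edgeR, and 0.071 without FBS batch 1 replicate 1) that was -0.0041 on unscaled TPM. With EGF at 4 hours, *CRELD1* was at 49.6, 49.4, 47.2, and 46.6 CPM and *CRELD2* at 38.0, 38.4, 46.1, and 44.0 CPM. Both rose, by 0.23 (adjusted *P* = 0.00437 in edgeR) and 0.27 (adjusted *P* = 0.000704). With NRG-1, *CRELD2* rose by 0.17 (adjusted *P* = 0.0328 in edgeR), a call that was lost without any of 5 libraries of CSS and NRG-1 4 h, with an adjusted *P* of up to 0.127 (without NRG-1 4 h batch 1 replicate 1).

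Among the J proteins, *DNAJB11* was higher in FBS (log2 fold change 0.26, adjusted *P* = 0.000114 in edgeR), with EGF at 1 hour (0.22) and 4 hours (0.33), and with NRG-1 at 4 hours (0.17). *DNAJC10*, an ER disulfide reductase, was higher in FBS (0.28), with EGF at 4 hours (0.15), and with NRG-1 at 4 hours (0.12). *DNAJC3*, also called p58IPK, was lower with NRG-1 at 4 hours (-0.13, adjusted *P* = 0.0338 in edgeR) and was not called in FBS (0.03).

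The lectin chaperones and the abundant disulfide isomerase *PDIA3* were not called against CSS. *CALR* was at 1177, 1183, 1302, and 1381 CPM in FBS and at 1026, 963, 1334, and 1489 CPM in CSS, with a log2 fold change of 0.10 (adjusted *P* = 0.376 in edgeR, SE 0.09), and after 4 hours of EGF it was at 1048, 1035, 1353, and 1492 CPM. In each of these groups both libraries of batch 2 were above those of batch 1, and the groups overlapped. *PDIA3* with EGF at 4 hours had a log2 value of 0.10 (adjusted *P* = 0.0712 in edgeR, and 0.045 with the block).

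*PDIA5*, a less abundant disulfide isomerase at 27.4 ± 2.01 TPM in CSS, differed with serum. It was at 46.4, 42.9, 45.6, and 47.1 CPM in FBS and at 26.2, 27.0, 27.6, and 26.2 CPM in CSS, a log2 fold change of 0.77 (adjusted *P* = 6.34e-13 in edgeR, SE 0.05) that was 0.75 in batch 1 and 0.78 in batch 2. FBS libraries were all above those of every other group, which lay between 23.7 and 28.1 CPM. *PDIA6* was higher in FBS (0.38, adjusted *P* = 1.06e-05 in edgeR), with EGF at 4 hours (0.28), and with NRG-1 at 4 hours (0.25). *PDIA4* was higher in FBS (0.33) and with EGF (0.14), and *P4HB* with EGF alone (0.13, adjusted *P* = 0.0225 in edgeR).

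In ER-associated degradation, *DERL3*, a derlin that helps to draw misfolded proteins out of the ER, was the member with the greatest difference in FBS and the only one beyond 1 on the log2 scale there, where 8.71% of all genes tested were called and beyond that limit. It was at 4.98, 6.27, 5.51, and 6.02 CPM in FBS and at 1.54, 1.82, 1.95, and 1.89 CPM in CSS, with no overlap and a log2 fold change of 1.66 (adjusted *P* = 1.89e-13 in edgeR, SE 0.11). After 4 hours it was at 1.25, 1.43, 1.67, and 1.39 CPM with EGF and at 1.47, 1.33, 1.62, and 1.45 CPM with NRG-1. These overlapped with CSS, at log2 fold changes of -0.32 (adjusted *P* = 0.0213 in edgeR) and -0.29 (adjusted *P* = 0.0404). The EGF call was lost without CSS batch 2 replicate 1 (0.068), CSS batch 2 replicate 2 (0.0551), EGF 4 h batch 1 replicate 1 (0.0844), or EGF 4 h batch 2 replicate 2 (0.052), and the NRG-1 call without any of 9 libraries (up to 0.121). *DERL3* was the member called lower with EGF at 1 hour (-0.35, adjusted *P* = 0.0488 in edgeR), which was lost without any of 20 libraries (up to 0.221). Its relatives *DERL1* (0.18 in FBS, adjusted *P* = 0.000544) and *DERL2* (0.20 in FBS, adjusted *P* = 0.108, and 0.0112 with the block) differed less.

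*HERPUD1*, encoding HERP, a stress-induced component of the degradation complex, rose at 1 hour of ligand and was below CSS at 4 hours. It was at 114, 114, 133, and 150 CPM in CSS, at 223, 203, 203, and 214 CPM after 1 hour of EGF, and at 61.1, 63.9, 91.7, and 99.6 CPM after 4 hours of EGF. The 1-hour libraries were all above and the 4-hour libraries all below CSS, with log2 fold changes of 0.74 (SE 0.12, adjusted *P* = 7.38e-05 in edgeR) and -0.71 (SE 0.13, adjusted *P* = 2.51e-05). NRG-1 gave 183, 190, 183, and 224 CPM at 1 hour and 56.9, 58.4, 84.5, and 103 CPM at 4 hours, also with no overlap, and log2 fold changes of 0.62 (SE 0.12, adjusted *P* = 0.00114 in edgeR) and -0.77 (SE 0.13, adjusted *P* = 9.56e-06). In FBS it was at 138, 164, 142, and 156 CPM, a log2 value of 0.25 (adjusted *P* = 0.0946 in edgeR, and 0.0429 with the block).

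*SEL1L*, the adaptor of the HRD1 ubiquitin ligase, was at 223, 231, 210, and 220 CPM in CSS, at 148, 153, 156, and 163 CPM after 4 hours of EGF, and at 162, 158, 160, and 174 CPM after 4 hours of NRG-1. Ligand libraries were all below CSS, by log2 fold changes of -0.51 (SE 0.05, adjusted *P* = 3.87e-09 in edgeR) and -0.44 (SE 0.05, adjusted *P* = 9.19e-08). *SYVN1*, encoding the HRD1 ligase itself, rose with EGF at 4 hours by 0.36 (SE 0.09, adjusted *P* = 0.000749 in edgeR). Its value with NRG-1 was 0.18 (adjusted *P* = 0.0962, and 0.0138 with the block), and in FBS it was -0.18 (adjusted *P* = 0.0845, and 0.00944 with the block). *EDEM1*, which marks misfolded glycoproteins, was called neither in FBS nor with ligand against CSS.

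Of the 6 members of translocation into the ER, 5 were called higher in FBS, against 26.0% of all genes, with a median log2 fold change of 0.39. The signal peptidase subunits *SPCS3* (0.66, adjusted *P* = 8.86e-05 in edgeR) and *SPCS2* (0.44, adjusted *P* = 3.97e-05), the translocon-associated *SSR3* (0.56, adjusted *P* = 0.000223) and *SSR1* (0.33, adjusted *P* = 1.45e-05), and the channel subunit *SEC61B* (0.33, adjusted *P* = 0.00119) were higher. *SEC61A1*, which forms the channel itself, had a log2 value of -0.05 in FBS. With EGF at 4 hours, *SSR1* was called higher (0.16), and with NRG-1 *SPCS3* was (0.33, adjusted *P* = 0.0415 in edgeR).

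Of the 8 members of vesicle traffic, 7 were called higher with EGF at 4 hours (24.6% of all genes), 6 with NRG-1 at 4 hours (21.6% of all genes), and 2 in FBS (26.0% of all genes). *KDELR3*, a receptor that returns ER chaperones from the Golgi, was at 1.38, 1.33, 2.04, and 2.09 CPM in CSS, at 4.00, 3.54, 5.36, and 5.97 CPM after 4 hours of EGF, and at 3.72, 4.40, 5.10, and 5.94 CPM after 4 hours of NRG-1. All ligand libraries were above all CSS libraries, with log2 fold changes of 1.47 (SE 0.09, adjusted *P* = 3.21e-14 in edgeR) and 1.5 (SE 0.09, adjusted *P* = 3.01e-14). FBS libraries (1.43, 1.58, 2.42, and 2.35 CPM) overlapped with CSS, with a log2 value of 0.18 (adjusted *P* = 0.0977 in edgeR), and the 1-hour libraries did too. *KDELR2*, the more abundant receptor at 127 ± 3.72 TPM in CSS, was higher in FBS (0.51, SE 0.05, adjusted *P* = 1.95e-10 in edgeR) and with both ligands at 4 hours (0.20 with EGF and 0.12 with NRG-1).

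*ARFGAP3*, a GTPase-activating protein for the ARF1 that recruits the COPI coat, was at 83.6, 83.8, 96.2, and 104 CPM in CSS and at 186, 188, 171, and 187 CPM after 4 hours of EGF. NRG-1 gave 157, 165, 152, and 174 CPM at 4 hours. Ligand libraries were all above CSS, with log2 fold changes of 1.00 (SE 0.08, adjusted *P* = 5.28e-11 in edgeR) and 0.83 (SE 0.08, adjusted *P* = 3.52e-09), whereas FBS (81.7, 88.7, 96.3, and 107 CPM) had a value of 0.02 (adjusted *P* = 0.828). *KDELR3* and *ARFGAP3* were the members called and beyond 1 on the log2 scale with EGF at 4 hours, beside 9.56% of all genes tested, and with NRG-1 *KDELR3* was the only one, beside 7.41%.

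The COPII coat genes *SEC24D* (0.47 with EGF and 0.33 with NRG-1) and *SEC23B* (0.19 and 0.14) and the COPI coat gene *COPB2* (0.18 and 0.12) rose with both ligands at 4 hours, and the cargo receptor *LMAN1* rose with EGF (0.17, adjusted *P* = 0.00661 in edgeR). None of these was called in FBS in the fit without the block, whose values lay between -0.11 and 0.03, and *COPB2* was called with it (adjusted *P* = 0.0488). *TMED2*, a p24 cargo receptor, was higher in FBS (0.43, SE 0.12, adjusted *P* = 0.00369 in edgeR) and was not called with ligand.

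**Figure D4:**
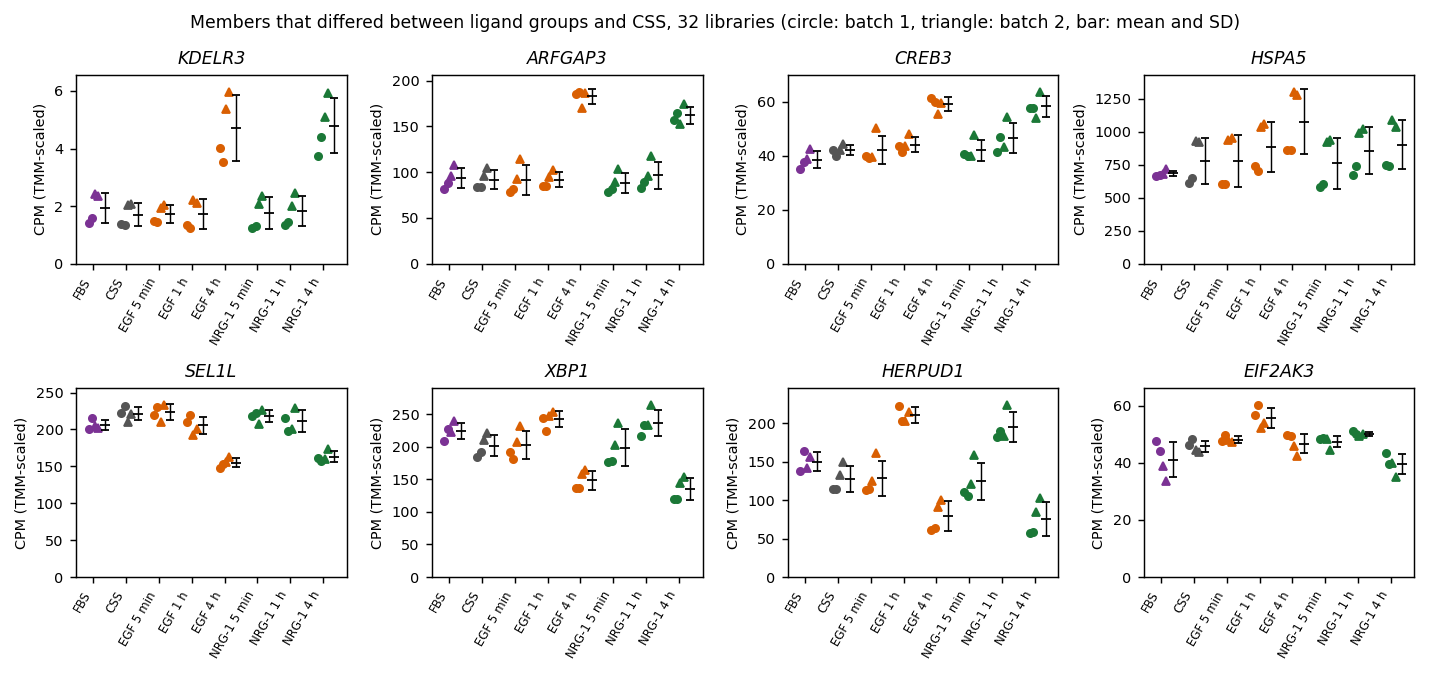
CPM of *KDELR3*, *ARFGAP3*, *CREB3*, *HSPA5*, *SEL1L*, *XBP1*, *HERPUD1*, and *EIF2AK3* in each of the 8 groups. Circles are libraries of batch 1, triangles are libraries of batch 2, and bars show the mean ± SD of 4 libraries. *HERPUD1* lies above CSS at 1 hour and below it at 4 hours of either ligand, *XBP1* does so except that its NRG-1 libraries at 1 hour overlap with CSS, and *KDELR3* and *ARFGAP3* rise at 4 hours and *HSPA5* is split by batch outside FBS.

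Members with the same element differed in their calls, with EGF at 4 hours calling 24.6% of all genes higher and 24.6% lower. Of the 7 members with an ER stress element, *HSPA5*, *HSP90B1*, *CRELD2*, and *PDIA6* were called higher with EGF at 4 hours, *XBP1* was called lower, and *CALR* and *CANX* were not called. Of the 3 members with an ER stress element II, *HYOU1* and *SDF2L1* were called higher and *HERPUD1* lower. Of the 5 members with the core of the unfolded protein response element, *HYOU1*, *DNAJC10*, *KDELR3*, and *COPB2* were called higher and *SSR3* was not called.

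The difference between 4 hours and 1 hour was then taken within each ligand, a comparison chosen after the data were seen. With EGF, 22 members were higher and 6 lower at 4 hours than at 1 hour, against 44.0% of all genes called (22.5% higher and 21.5% lower), and with NRG-1 12 were higher and 6 lower, against 37.5% (19.0% higher and 18.5% lower). *HERPUD1* fell by 1.45 on the log2 scale with EGF (adjusted *P* = 1.58e-10 in edgeR, SE 0.13) and by 1.39 with NRG-1 (SE 0.13, adjusted *P* = 4.56e-10). *XBP1* fell by 0.71 with EGF (adjusted *P* = 5.07e-11 in edgeR) and by 0.82 with NRG-1 (adjusted *P* = 3.1e-12), and *KDELR3* rose by 1.46 and 1.42. *DNAJB9* fell by 0.81 with NRG-1 (adjusted *P* = 0.000309 in edgeR) and by 0.42 with EGF (adjusted *P* = 0.0464), where the call was lost without any of 15 libraries (up to 0.148). Whether the change from 1 to 4 hours differed between EGF and NRG-1 was tested as an interaction, which called 0 members (3 at an unadjusted *P* below 0.05, against 6.17% of all genes) and 0.506% of all genes.

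The direct comparison of the ligands called 0 members at 1 hour (4 at an unadjusted *P* below 0.05, against 8.22% of all genes), beside 1.06% of all genes (0.941% higher with EGF and 0.118% lower). At 4 hours, edgeR called *EIF2AK3* alone (11 members at an unadjusted *P* below 0.05, against 11.2% of all genes), beside 1.66% of all genes (1.25% higher with EGF and 0.412% lower). With the replicate block, *HSPA5* (0.25 higher with EGF, adjusted *P* = 0.0481), *DNAJB11* (0.16, adjusted *P* = 0.049), and *CREB3L2* (0.21, adjusted *P* = 0.0495) were called as well, giving 4 members in all. More members passed the threshold with EGF than with NRG-1 against CSS, and for all but these the difference between the ligands itself was not called.

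To test whether serum and ligand effects differed, FBS was compared directly with each ligand group at 4 hours, in which the CSS control cancels. FBS and EGF at 4 hours differed for 35 members, 18 higher and 17 lower in FBS, against 62.4% of all genes (31.0% higher and 31.5% lower). FBS and NRG-1 at 4 hours differed for 33 members, 19 higher and 14 lower, against 57.2% of all genes (27.8% higher and 29.4% lower). Beyond 1 on the log2 scale were 3 members against EGF, beside 16.4% of all genes, and 4 against NRG-1, beside 14.4%.

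Against CSS, *XBP1*, *CREB3L4*, and *DERL3* were called higher in FBS and lower with both ligands at 4 hours. For *DERL3*, the 5-minute libraries of both ligands already lay within the range of the 4-hour libraries. The log2 difference of FBS from EGF at 4 hours was 1.98 for *DERL3* (SE 0.11, adjusted *P* = 2.78e-15 in edgeR), 1.53 for *CREB3L4* (SE 0.06, adjusted *P* = 1.91e-19), and 0.60 for *XBP1* (SE 0.06, adjusted *P* = 6.66e-10). *ATF6* was the reverse, called lower in FBS and higher with both ligands, with a difference of -0.54 from EGF (SE 0.05, adjusted *P* = 2.02e-11 in edgeR). *HYOU1* and *CRELD1* were lower in FBS and higher with EGF, with differences of -0.50 (adjusted *P* = 1.85e-06 in edgeR) and -0.53 (adjusted *P* = 4.11e-08). Several of these calls against CSS were lost under an alternative. The *XBP1* value in FBS was -0.04 on unscaled TPM and its call was lost without any of 3 libraries, and the *DERL3* calls with EGF and NRG-1 were lost without any of 4 and 9 libraries and on unscaled TPM (adjusted *P* = 0.166 and 0.201 in limma). On unscaled TPM the *ATF6* calls with EGF (0.11, adjusted *P* = 0.274 in limma) and NRG-1 (0.08, 0.493) and the *HYOU1* call with EGF (0.20, 0.242) were also lost. The *HYOU1* call in FBS was lost without FBS batch 2 replicate 2 (0.0723) or CSS batch 2 replicate 1 (0.0524).

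Another set changed with ligand and was not called in FBS against CSS. It held *CREB3*, *HSPA5*, *SEC24D*, *SEC23B*, *KDELR3*, *COPB2*, and *ARFGAP3*, which were higher with both ligands at 4 hours, and *HERPUD1* and *SEL1L*, which were lower with both. With the replicate block, *CREB3* (adjusted *P* = 0.037 in edgeR), *COPB2* (0.0488), *HERPUD1* (0.0429), and *SEL1L* (0.0444) were called in FBS as well and leave this set. For each gene of the set the difference between FBS and EGF at 4 hours was itself called. It was -1.28 for *KDELR3* (adjusted *P* = 2.17e-13 in edgeR), -0.98 for *ARFGAP3* (adjusted *P* = 4.42e-11), -0.62 for *CREB3* (adjusted *P* = 5.17e-08), 0.96 for *HERPUD1* (adjusted *P* = 1.63e-07), and 0.41 for *SEL1L* (adjusted *P* = 1.46e-07). *HSPA5* differed by -0.61 (adjusted *P* = 7.16e-08 in edgeR), with -0.36 in batch 1 and -0.89 in batch 2.

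The members called higher in FBS and not with ligand that also differed from EGF at 4 hours were *PDIA5* (0.74, adjusted *P* = 5.95e-13 in edgeR), *DNAJB9* (0.81, adjusted *P* = 0.000133), *SPCS2* (0.43, adjusted *P* = 4.23e-05), *SSR3* (0.42, adjusted *P* = 0.00275), and *TMED2* (0.39, adjusted *P* = 0.00676). With the replicate block, *DNAJB9* was called lower with both ligands (adjusted *P* = 0.00333 and 0.00109 in edgeR), and *SSR3* was called higher with NRG-1 at 4 hours (0.0467). *HSP90B1*, *DNAJB11*, *CRELD2*, and *PDIA6* were higher in FBS and with both ligands, and FBS was not called against EGF for these. *DNAJC10*, *MANF*, and *KDELR2* were higher in all of these groups and higher in FBS than with EGF at 4 hours.

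**Figure D5:**
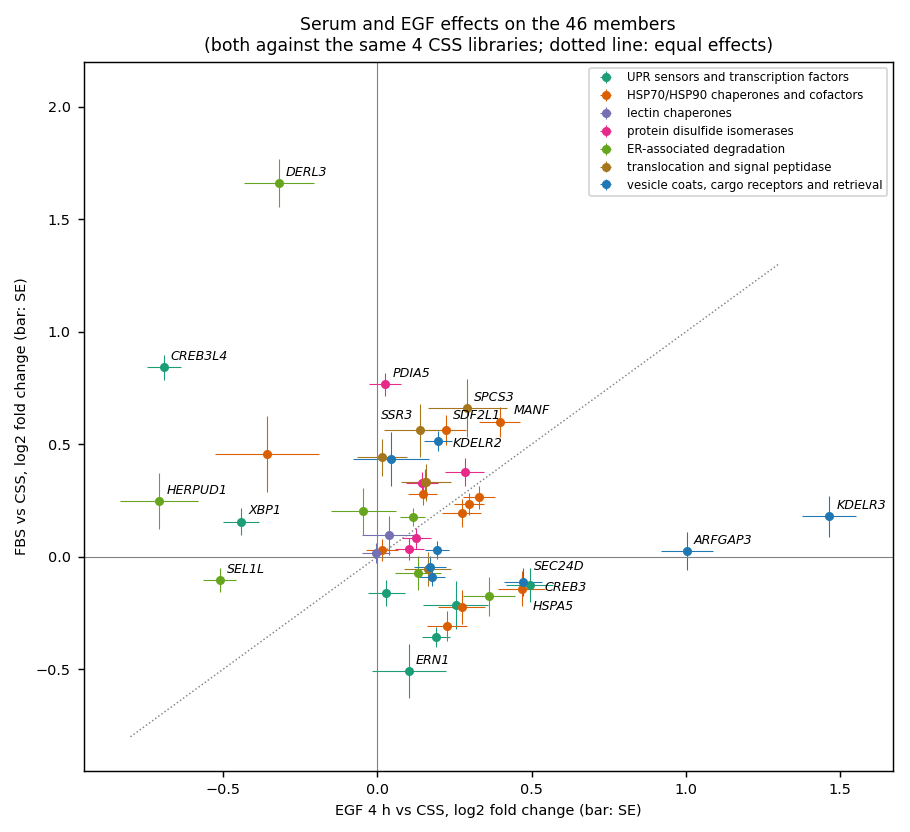
Log2 fold change of each member against CSS with EGF at 4 hours (horizontal axis) and in FBS (vertical axis), with bars of 1 SE and a dotted line where both are equal. Both axes use the same CSS libraries, so their joint spread is no test. *DERL3* and *CREB3L4* lie at the upper left (1.66 and 0.84 in FBS), and *KDELR3* and *ARFGAP3* lie at the right near 0 in FBS.

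The batches gave the same direction for every called member in each of these comparisons. All 4 same-numbered pairs of libraries moved in the called direction for 23 of 26 members in FBS, 30 of 30 with EGF at 4 hours, and 22 of 23 with NRG-1 at 4 hours. These members were selected by their calls over the same libraries, which favors such agreement, so it is a description and no separate test.

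Other genes of the ER were taken from lists of 112 symbols, of which 111 were tested. Of 27 genes of folding and N-glycosylation, 15 were called higher and 3 lower in FBS (26.0% and 26.8% of all genes), and 8 higher and 0 lower with EGF at 4 hours (24.6% of all genes in each direction), so that the share called in all with EGF was below the 49.2% of all genes. *TXNDC12*, a thioredoxin-like protein of the ER, was at 100 ± 7.24 CPM in FBS and 60.1 ± 3.68 CPM in CSS (log2 fold change 0.74, adjusted *P* = 3.47e-10 in edgeR). *ERO1L*, the oxidase that reoxidizes disulfide isomerases, rose with EGF (0.61) and with NRG-1 (0.50) at 4 hours.

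Of 17 further degradation genes, 6 were called higher and 5 lower in FBS (26.0% and 26.8% of all genes), among them *UFD1L* (0.73, adjusted *P* = 1.37e-05 in edgeR), a cofactor of the p97 ATPase, and *OS9* (-0.40, adjusted *P* = 4.01e-06), a lectin of the HRD1 complex. Of 18 translocation genes, 7 were called higher and 1 lower in FBS, and the signal peptidase subunit *SEC11C* was at 220 ± 43.5 CPM in FBS and 118 ± 13.8 CPM in CSS (0.90, adjusted *P* = 1.37e-05 in edgeR). Of 37 vesicle genes, 12 were called higher and 13 lower in FBS. With EGF at 4 hours 12 were called higher and 1 lower (24.6% of all genes in each direction), and the share called in all was below the 49.2% of all genes. *SEC31A*, of the outer COPII coat, fell by 0.47 in FBS (adjusted *P* = 7.01e-07 in edgeR), and *SURF4*, a cargo receptor, rose by 0.49 with EGF (adjusted *P* = 7.95e-09).

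The arm of the unfolded protein response below PERK was listed as 12 targets and relatives of ATF4. With EGF at 1 hour 8 of 12 were called higher and 0 lower (6.00% and 3.51% of all genes), and with NRG-1 at 1 hour 6 were called higher and 1 lower (4.45% and 2.28% of all genes). *ATF3*, a stress and growth factor-induced transcription factor, was at 55 ± 3.62 CPM in CSS, 674 ± 135 CPM after 1 hour of EGF, and 326 ± 42.1 CPM after 1 hour of NRG-1 (log2 fold changes 3.61 and 2.56), and the ligands differed by 1.05 (adjusted *P* = 0.000248 in edgeR). At 4 hours, 0 were called higher and 6 lower with EGF (24.6% of all genes in each direction), and 1 higher and 6 lower with NRG-1 (21.6% and 21.0% of all genes). *CHAC1*, which degrades glutathione, was at 50.3 ± 1.89 CPM at 1 hour and 14.5 ± 4.97 CPM at 4 hours of NRG-1, against 29.7 ± 3.77 CPM in CSS.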

How the data were processed

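LNCaP RNA was sequenced after poly(A) capture with strand recorded, as 32 libraries in 8 groups. Groups, batches, and replicate numbers were taken from the labels, which call the libraries biological replicates without saying whether each was a separate culture, so *P* values measure the spread between these libraries. Per the labels, the authors trimmed reads with Trimmomatic 0.36 and estimated gene values with RSEM around STAR 2.7.0f on hg19. They deposited expected counts, which are estimated and not normalized, and TPM, which are scaled for length and library total. All columns of values were used. Since 11.2% of the expected counts were not whole, they were rounded. Promoter sequences are from RefSeq for GRCh38.p14, and no protein sequences were used here.

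Testing covered genes that reached 5 counts in 3 or more libraries, in edgeR 4.0.16 (R 4.3.3), by the quasi-likelihood test after TMM scaling (a trimmed mean of log ratios) with terms for group and batch, and *P* values were adjusted over all 16995 genes. The depth was at least 63822654 counts per library, which sets the counting error of each value. No replicates were duplicates, the smallest chi-square per degree of freedom between replicates being 6.50.

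Replicate numbers share a batch per the labels. Libraries of the same batch and number deviated together, at *r* of 0.13 to 0.57 over 112 pairs, which includes the batch effect. Within batch, *r* was -0.06 to 0.11 in batch 1 (1 of 28 pairs of groups over 0.1) and 0.07 to 0.43 in batch 2 (26 of 28). A link by number thus showed in batch 2 and hardly in batch 1, and the number was used as a block beside the main fit. The fit with this block is an alternative.

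Other settings tried were DESeq2 1.42.0 (Wald test), its size factors in edgeR, no filter, a stricter filter (10 counts in all libraries), leaving out the batch term, only the 2 groups compared, each batch alone, a log2 limit of 1, limma 3.58.1 on log2 TPM plus 1 or 0.1 with or without a filter at a mean TPM of 0.5, each library left out in turn, and, chosen after seeing the data, limma on TMM-scaled TPM. The edgeR, DESeq2, and limma fits were also run on simulated counts with a batch shift. No link between same-numbered libraries was simulated, so this did not test the fits under such a link. Members and gene lists were chosen with earlier results of these data known. Values by library are given for 17 members fixed by name (of which *KDELR3*, *DERL3*, and *CREB3L4* were taken from earlier results) and for up to 3 members with the greatest called rise and fall in FBS and in each ligand group at 1 and 4 hours against CSS. Other members are given by their fold change, and genes of the other ER lists where they had the greatest called rise or fall of their list.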

Additional observations from a re-analysis of the deposited data

Results flagged for a closer look

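Among 168 groups of 4 libraries examined for the members given by library, 14 held a library whose gap to the nearest other exceeded Dixon's critical value, where chance alone flags about 1 in 20, or 8. That rate holds for 4 independent draws from 1 distribution. Each group here held 2 batches, which differed for several members, so the expected 8 is only a guide. Of the 14 libraries, 10 were batch 2 replicate 2. In EGF at 5 minutes, that library stood apart for *DNAJB9* (40.4 CPM), *CREB3L4* (77.6 CPM), *CREB3* (50.2 CPM), and *PDIA5* (24.6 CPM, below the others). In NRG-1 at 5 minutes it stood apart for *DNAJB9* (33.0 CPM), *CREB3L4* (80.7 CPM), *CREB3* (47.9 CPM), and *EIF2AK3* (44.7 CPM, below the others). It also stood apart for *HERPUD1* at 1 hour of NRG-1 (223.7 CPM) and for *PDIA5* at 4 hours of NRG-1 (23.7 CPM, below the others).

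The remaining libraries were batch 2 replicate 1 of NRG-1 at 4 hours for *CRELD2* (41.6 CPM, above the others) and *CRELD1* (43.2 CPM, below the others), batch 2 replicate 1 of EGF at 4 hours for *ARFGAP3* (171 CPM, below the others), and batch 1 replicate 2 of CSS for *CRELD1* (38.9 CPM, below the others).

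The effect of a ligand differed between 4 hours and 1 hour by a test in edgeR for several members. For EGF, the log2 effect at 4 hours minus that at 1 hour was positive for *KDELR3* (1.46), *ARFGAP3* (1.00), *CREB3* (0.43), *MANF* (0.39), *HSPA5* (0.28), *ATF6* (0.23), *CRELD1* (0.23), *CRELD2* (0.22), *HSP90B1* (0.20), and *SDF2L1* (0.17). It was negative for *HERPUD1* (-1.45), *XBP1* (-0.71), *CREB3L4* (-0.61), *DNAJB9* (-0.42), *SEL1L* (-0.41), and *EIF2AK3* (-0.25).

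For NRG-1 it was positive for *KDELR3* (1.42), *ARFGAP3* (0.76), *CREB3* (0.33), *ATF6* (0.24), *MANF* (0.18), and *HSP90B1* (0.14), and negative for *HERPUD1* (-1.39), *XBP1* (-0.82), *DNAJB9* (-0.81), *CREB3L4* (-0.53), *SEL1L* (-0.37), and *EIF2AK3* (-0.35).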

How the results depend on the processing

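Of 114 differences called for the members given by library, 113 stayed called with DESeq2, 114 with the replicate number as a block, 106 in batch 1 alone, 67 in batch 2 alone, 82 with no batch term, 84 on unscaled TPM, and 110 on TMM-scaled TPM. The cause of these losses was not tested.

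The number of members called was 26 in FBS, 5 and 2 with EGF and NRG-1 at 1 hour, 30 and 23 with EGF and NRG-1 at 4 hours, and 35 and 33 for FBS against EGF and NRG-1 at 4 hours. With no batch term it was 2 and 1 at 1 hour and 17 and 9 at 4 hours. In batch 2 alone it was 10 in FBS, 0 and 0 at 1 hour, 12 and 6 at 4 hours, and 22 and 19 for FBS against the ligands. Using only the 2 groups compared, it was 1 with NRG-1 at 1 hour. Beyond 1 on the log2 scale there were 1, 0 and 0, 2 and 1, and 3 and 4 in the same order. In limma on log2 TPM plus 1 or plus 0.1, it was 2 and 1 at 1 hour and 19 and 11 at 4 hours, and with no filter at a pseudocount of 1 it was 3 and 1 and again 19 and 11. After TMM scaling of TPM the split was 21 higher and 8 lower in FBS, 24 and 4 with EGF at 4 hours, and 16 and 7 with NRG-1 at 4 hours. Shares of all genes under these settings are not given.

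Between EGF and NRG-1 at 4 hours, 1 member was called. It was 4 with the replicate block, 3 with DESeq2, and 0 with no batch term, in batch 2 alone, beyond 1 on the log2 scale, and in limma on log2 TPM plus 1 or plus 0.1. The block kept every call of the members given by library, added calls as stated beside the results, and moved no other count by over 1.5 times.

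On unscaled TPM, *XBP1* in FBS against CSS turned to -0.0425 (pseudocount 1, with or without the filter) and -0.0427 (pseudocount 0.1), and *CRELD2* to -0.00408 and -0.00411.

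With 1 library left out, the count was 22 to 30 in FBS, 4 to 5 and 1 to 2 at 1 hour, 27 to 32 and 16 to 24 at 4 hours, 0 to 3 between the ligands at 4 hours, 30 to 36 and 29 to 36 for FBS against EGF and NRG-1, and 25 to 31 and 15 to 19 for 4 hours against 1 hour of EGF and NRG-1. It was 0 to 0 for the others.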
